A study of Mus musculus with 4 samples.

Results

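The 10 genes described here are Sox9, Krt7, Krt19 and Epcam, which mark cholangiocytes, and Jag1, Notch1, Notch2, Notch3, Rbpj and Hes1, which belong to the Notch pathway. They were taken from the deposited table by gene symbol, and each symbol matched a single row, so the members are 10 of 24138 rows. RNA was sequenced from whole liver of 4 male C57BL/6J mice aged 18 weeks. All 4 animals had been fed FAT-MASH, a diet used to model metabolic dysfunction-associated steatohepatitis (MASH), and all had been treated with resolvin D1 (RvD1), a lipid mediator made from docosahexaenoic acid. The labels give no dose, route or duration and name no second group, so the values describe levels and their spread between treated animals, and an effect of the diet or of RvD1 cannot be read from them. Nothing in the labels says that animals were pooled, and each library is called here by its liver number, 1 to 4.

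Notch signalling passes between touching cells. A ligand such as Jag1 on one cell pulls on a Notch receptor on its neighbour, the receptor is cut by an Adam protease and then by gamma-secretase, and the freed intracellular part enters the nucleus, where it joins Rbpj and a Mastermind protein on DNA and switches on genes of the Hes and Hey families. In the developing liver this signal turns hepatoblasts towards the biliary fate and helps shape the bile ducts. Cholangiocytes, the epithelial cells that line the ducts, carry Sox9, Krt7, Krt19 and Epcam, and ductular cells with these markers can expand in injured liver.

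Levels are given in FPKM, fragments per kilobase of transcript scaled to the mapped fragments of the library, a unit per length that allows genes to be compared. The depth, estimated from the values themselves, was 18.8 M to 20.1 M fragments per library. A gene was called expressed with a mean of at least 1 FPKM, which 10541 genes reached, with a median of 7.83 FPKM. Hepatocyte genes on the marker list were expressed for 10 of 10. Of 8 pancreatic and intestinal genes, 5 were listed at 0 in all livers (Cpa1, Cpb1, Pnlip, Ctrb1 and Cdx2), and Fabp2 and Cela1 were expressed. Whole liver was measured, so fewer cells of a type and less RNA per cell cannot be told apart.

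All 10 members were above 0 in every liver, and 9 of 10 had a mean of at least 1 FPKM, Notch3 being the exception. Hes1 had the highest mean, at 11.4 ± 5.64 FPKM (SD, n = 4), and Notch3 the lowest, at 0.440 ± 0.127 FPKM (SD, n = 4). The order of means was Hes1, Epcam, Krt19, Sox9, Notch2, Krt7, Rbpj, Notch1, Jag1 and Notch3. Of the 9 neighbouring pairs in this order, 5 stood the same way round in all 4 livers, namely Epcam over Krt19, Notch2 over Krt7, Krt7 over Rbpj, Rbpj over Notch1 and Jag1 over Notch3. Each of these had adjusted p = 0.225 over the 9 pairs by an exact two-sided permutation test of within-liver differences, whose raw p was the smallest that 4 livers allow and lies above 0.05. The ranges of Krt7 and Rbpj overlapped all the same. Hes1 and Epcam, Krt19 and Sox9, Sox9 and Notch2, and Notch1 and Jag1 changed places between livers, with adjusted p from 0.321 to 1 by the same exact test. The mean log2 difference was smaller than its SD over the livers for the first 3 of these pairs (0.60 against 0.68 for Hes1 and Epcam) and slightly larger for Notch1 and Jag1 (0.23 against 0.22).

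**Figure D1:**
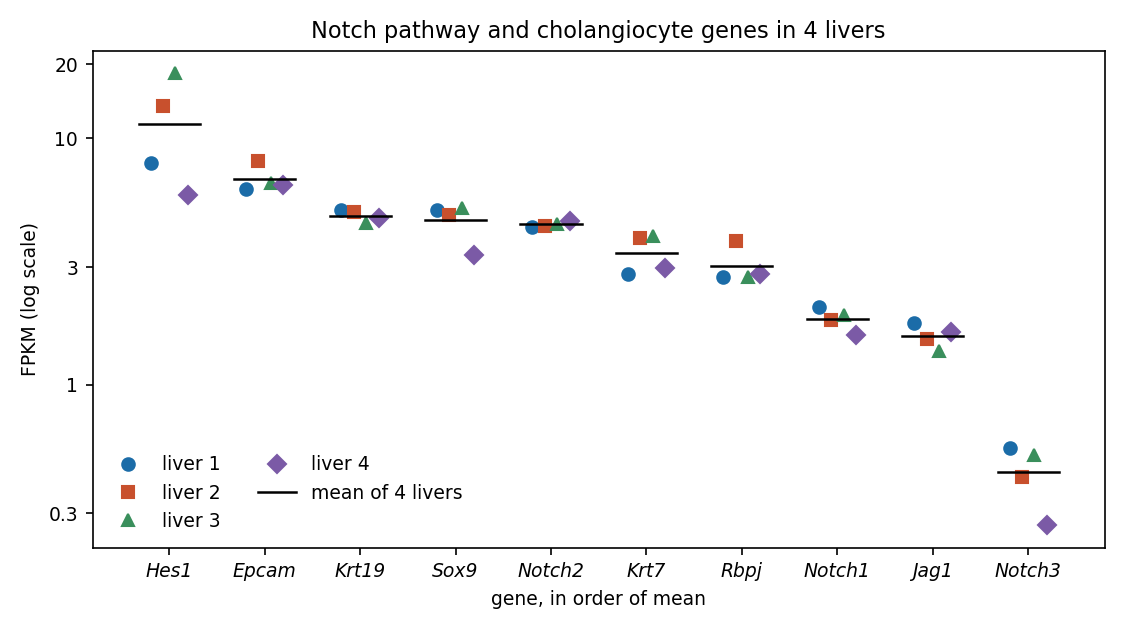
Level of each member in FPKM on a log axis, 1 point per liver, with the mean of the 4 livers as a bar. Hes1 spreads from 5.86 to 18.3 FPKM, whereas the 4 values of Notch2 lie between 4.36 and 4.63 FPKM.

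Of the ligands, Jag1 (XLOC_012808, chromosome 2, 137081451 to 137116520, coordinates of mm10) is the one whose loss is known to cause paucity of bile ducts. It was measured at 1.78, 1.53, 1.37 and 1.64 FPKM in livers 1 to 4, a mean of 1.58 ± 0.173 FPKM (SD, n = 4). The values lay close together, highest in liver 1 and lowest in liver 3. Of the 5 ligand genes, 2 were expressed, Jag1 and Dll4. Dll4, a ligand of endothelial cells, was at 0.997, 1.68, 1.00 and 1.08 FPKM, high in liver 2 and nearly level in the others. Dll1 had a mean of 0.970 ± 0.188 FPKM (SD, n = 4), just under the limit, Jag2 stayed between 0.0139 and 0.186 FPKM, and Dll3 was listed at 0 in all 4 livers.

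Among the receptors Notch2 was the most abundant in every liver. Notch2 (XLOC_013423, chromosome 3, 98013538 to 98150367), the receptor tied to bile duct formation, was at 4.36, 4.40, 4.49 and 4.63 FPKM in livers 1 to 4, a mean of 4.47 ± 0.120 FPKM (SD, n = 4). It varied by a coefficient of variation (CV) of 2.68%, against 3.34% that counting about 876 to 902 fragments would give, an approximate value. Its SD of log2(FPKM + 1) was 0.03, and 0.759% of the expressed genes had a smaller one. Without liver 4, where it was highest, the SD of Notch2 was 0.02. Notch1 (XLOC_012177, chromosome 2, 26457902 to 26503822), a receptor of endothelial and immune cells among others, was at 2.07, 1.83, 1.91 and 1.59 FPKM, and without liver 4 its SD fell from 0.10 to 0.06 on the log2(FPKM + 1) scale. Notch2 exceeded Notch1 in each liver, by 2.10-fold to 2.91-fold.

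Notch3 (XLOC_009321, chromosome 17, 32120893 to 32166852), known from smooth muscle cells, pericytes and stellate cells, was at 0.554, 0.421, 0.517 and 0.269 FPKM in livers 1 to 4. Liver 4 was the lowest, 2.06-fold below liver 1. These levels correspond to an estimated 40 to 87 fragments, for which counting alone gives a CV of 12.7%, and the CV between livers was 28.9%. Without liver 4 the SD of Notch3 fell from 0.13 to 0.07 on the log2(FPKM + 1) scale. Leaving out the most distant value lowers any SD. Dixon's ratio of liver 4, explained below with Rbpj, was 0.558 for Notch3 and short of its critical value. The smooth muscle and pericyte list of 7 genes, which holds Notch3, summed to 17.5, 18.1, 13.0 and 13.4 FPKM, and the stellate list of 10 genes to 197, 264, 171 and 194 FPKM. Over the 4 expressed genes of the smooth muscle and pericyte list, the median deviation was -0.06 in liver 4 and lowest in liver 3, at -0.18 (log2). In the stellate list 6 of 10 genes were lowest in liver 4, as were 18.1% of all expressed genes, and its median deviation was -0.19 there and -0.10 in liver 3. Its sum, of which Dcn makes up 71.7%, was lowest in liver 3. The part of these cells in the level of Notch3 was not tested. The remaining receptor, Notch4, an endothelial gene, had a mean of 0.597 ± 0.119 FPKM (SD, n = 4).

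Rbpj (XLOC_015839, chromosome 5, 53555779 to 53657445), the DNA-binding protein through which all Notch receptors act, was at 2.72, 3.82, 2.74 and 2.80 FPKM in livers 1 to 4, a mean of 3.02 ± 0.531 FPKM (SD, n = 4). Liver 2 stood above the other livers, which lay between 2.72 and 2.80 FPKM. Dixon's ratio, the gap between the extreme liver and its nearest neighbour divided by the whole range on the log2(FPKM + 1) scale, was 0.920, past its 95% critical value. Without liver 2 the SD of Rbpj fell from 0.18 to 0.02 on the log2(FPKM + 1) scale. Dll4 also passed this ratio in liver 2, at 0.858. Among expressed genes of the lists, 5 of 9 endothelial, 6 of 10 stellate and the 1 mesothelial gene were highest in the same liver and 0 were lowest, while 22.0% of all expressed genes were highest and 29.9% lowest there. The other 5 mesothelial genes, below 1 FPKM on average, were highest there too. From livers 1 to 4 the endothelial list summed to 66.6, 84.5, 77.3 and 78.4 FPKM, spanning 1.27-fold. The stellate list spanned 1.54-fold and the mesothelial list 3.73-fold, and Rbpj 1.40-fold. The macrophage list of 8 genes summed to 135, 195, 124 and 191 FPKM. The part of these cell types in the level of Rbpj was not tested.

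Rbpj binds the bases TGGGAA, so the promoters of the pathway were searched for this motif on both strands (TTCCCA on the other strand), in the 250 bases before each annotated start of transcription in RefSeq (GRCm38.p6). Windows were given for 7 members and not for Hes1, Sox9 and Krt19, which were not searched, and of the 7 only Rbpj had a match. Among the members and the pathway, 49 of 60 genes had a window, and 13 of 65 windows (20%) held the motif, close to the 21.6% of all 32851 windows. A match is a description of the letters, not a bound site. The following 3 windows are printed because they belong to the member high in liver 2, to the steadiest member, and to a classical target gene that holds the motif and was listed at 0. Capitals mark the motif. Positions are counted from the start, with -1 as the base before it. In the printed windows the leftmost base of each match lies at -149 and -65 in Rbpj and at -226 and -82 in Hes5. A second Rbpj window, for another annotated start (chr5:53590236-53590485), holds 1 match, at -205 from that start. It covers the same bases as the match at -65, so that site counts under both windows.
Rbpj, chr5:53590096-53590345, plus strand: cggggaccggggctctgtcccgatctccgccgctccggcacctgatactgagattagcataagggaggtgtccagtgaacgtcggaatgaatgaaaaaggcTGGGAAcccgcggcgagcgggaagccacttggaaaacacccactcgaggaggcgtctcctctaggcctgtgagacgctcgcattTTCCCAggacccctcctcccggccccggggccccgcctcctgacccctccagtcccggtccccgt
Notch2, chr3:98013288-98013537, plus strand: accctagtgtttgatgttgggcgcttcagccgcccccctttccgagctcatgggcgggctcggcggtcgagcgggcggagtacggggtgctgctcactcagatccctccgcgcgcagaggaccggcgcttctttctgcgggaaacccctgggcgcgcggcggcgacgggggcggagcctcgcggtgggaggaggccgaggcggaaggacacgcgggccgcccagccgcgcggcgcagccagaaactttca
Hes5, chr4:154960673-154960922, plus strand: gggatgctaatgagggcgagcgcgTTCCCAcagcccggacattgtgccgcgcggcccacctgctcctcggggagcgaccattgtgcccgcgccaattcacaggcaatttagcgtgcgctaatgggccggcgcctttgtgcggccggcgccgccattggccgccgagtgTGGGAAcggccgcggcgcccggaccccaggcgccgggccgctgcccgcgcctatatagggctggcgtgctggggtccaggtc

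Hes1 (XLOC_007907, chromosome 16, 30065357 to 30067796), a transcriptional repressor and the best known Notch target in liver, was at 7.91, 13.5, 18.3 and 5.86 FPKM in livers 1 to 4. Liver 3 was 3.13-fold above liver 4, and the 4 values were spread out with no single liver apart (Dixon's ratio 0.278). Its SD of log2(FPKM + 1) was 0.67, which 0.674% of the expressed genes exceeded. The CV was 49.5%, against 6.58% from counting an estimated 140 to 454 fragments. The ratio of Hes1 to Rbpj ran from 2.09 in liver 4 to 6.68 in liver 3, and the ratio of Notch2 to Notch1 moved far less. Of the 6 Notch genes among the members, Hes1 varied most.

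The other genes on the list of target genes did not share this range. Heyl was at 0.747, 0.967, 1.10 and 0.628 FPKM and Nrarp, which feeds back on the pathway, at 0.662, 0.704, 0.819 and 0.580 FPKM in livers 1 to 4. Both ranked the livers as Hes1 did, from liver 3 down through livers 2 and 1 to liver 4. Besides Hes1, which sets the order, 7 genes of the target list were above 0 in all livers. Of these, 2 had this order, against 3.59% of 14015 genes above 0 in all livers. The order was noticed after the values were seen, so nothing is read from this count, and the steps of Heyl and Nrarp are small. Hey1, a target in endothelium, was at 0.749, 1.43, 0.843 and 1.04 FPKM, with its highest value in liver 2. Hes6, which opposes Hes1, had a mean of 56.8 ± 7.88 FPKM (SD, n = 4), Hey2 stayed between 0.104 and 0.212 FPKM, and Hes5 was listed at 0.

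**Figure D2:**
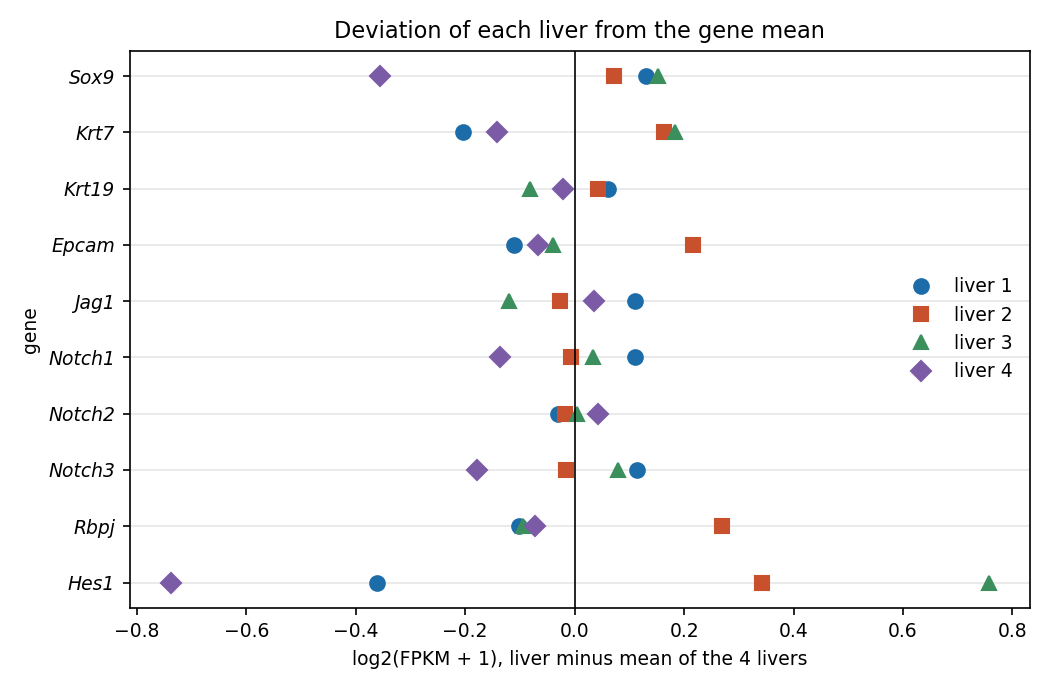
Deviation of each liver from the mean of the 4 livers for each member, on the log2(FPKM + 1) scale. Hes1 spans from -0.74 in liver 4 to 0.76 in liver 3, Rbpj has liver 2 alone at 0.27, and Sox9 has liver 4 alone at -0.36.

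Sox9 (XLOC_003252, chromosome 11, 112782210 to 112787757), a transcription factor of cholangiocytes and of biliary progenitors that Notch signalling is known to induce, was at 5.12, 4.88, 5.22 and 3.37 FPKM in livers 1 to 4. Livers 1 to 3 lay between 4.88 and 5.22 FPKM, and liver 4 was apart below them (Dixon's ratio 0.841 on the log2(FPKM + 1) scale, just past the critical value). On the deposited scale, with no logarithm, the ratio was 0.817 and short of the critical value. Without liver 4 the SD fell from 0.24 to 0.04 on the log2(FPKM + 1) scale. Sox9 is also known from activated stellate cells. In the stellate list, which does not single out activated cells, 6 of 10 genes were lowest in liver 4, as were 18.1% of all expressed genes. The median deviation of this list was the lowest of the 4 livers there (-0.19, log2). Its sum, mostly Dcn, was 194 FPKM in liver 4 and lower, at 171 FPKM, in liver 3. The part of these cells in the level of Sox9 was not tested.

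Of the keratins, Krt19 (XLOC_004024, chromosome 11, 100140811 to 100145919), a filament protein of simple epithelia and a standard stain for bile ducts, was at 5.09, 5.01, 4.52 and 4.75 FPKM in livers 1 to 4. The 4 livers were close, with a CV of 5.43%, under the 8.80% that counting an estimated 121 to 141 fragments gives. Krt7 (XLOC_007248, chromosome 15, 101412403 to 101427806), its filament partner of the other keratin type, was at 2.82, 3.92, 3.99 and 2.98 FPKM. Krt7 was thus high in livers 2 and 3 and low in livers 1 and 4, a split that Krt19 did not show. The ratio of Krt19 to Krt7 was 1.81 in liver 1 and 1.13 in liver 3.

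Epcam (XLOC_009087, chromosome 17, 87635979 to 87651127), an adhesion protein of cholangiocytes and progenitor cells that hepatocytes of healthy adult liver lack, was at 6.23, 8.07, 6.60 and 6.46 FPKM in livers 1 to 4. Liver 2 was the highest, with a Dixon's ratio of 0.779, short of the critical value. Without liver 2 the SD fell from 0.15 to 0.04 on the log2(FPKM + 1) scale. Mesothelial cells, which cover the liver surface, also carry keratins such as Krt7 and Krt19. Of 7 mesothelial genes, 6 were in the table, and all 6 were highest in liver 2 (22.0% of all expressed genes were), among them Msln at 0.418, 1.47, 0.572 and 0.211 FPKM. The list summed to 4.14, 8.66, 4.29 and 2.32 FPKM, spanning 3.73-fold, with 5 of 6 genes lowest in liver 4 (18.1% of all expressed genes were). Gpm6a, at 43.9% of the sum, was the 1 expressed gene of this list. The other 5 had means of 0.321 to 0.704 FPKM, Upk1b being listed at 0 in liver 4. The shares in brackets cover expressed genes only, so they are no background for those 5. The sum of Sox9, Krt7, Krt19 and Epcam was lowest in liver 4 at 17.6 FPKM and highest in liver 2 at 21.9 FPKM, and the part of mesothelial cells in it was not tested.

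The wider cholangiocyte list held 28 genes, of which 23 were expressed, 19 of them besides the 4 members. Krt8 and Krt18, keratins that hepatocytes also make, were at 206 ± 27.4 and 158 ± 20.9 FPKM (SD, n = 4), and Krt8 exceeded Krt19 by 37.3-fold to 45.8-fold. Spp1 (osteopontin), a product of cholangiocytes and of macrophages, was at 214, 182, 171 and 195 FPKM, highest in liver 1 and lowest in liver 3. The chloride channel gene Cftr had 0.171 ± 0.0891 FPKM and the secretin receptor gene Sctr 0.200 ± 0.0662 FPKM (each SD, n = 4), both far below the 4 members. Among the 19 other expressed genes of the list, 8 were lowest in liver 3 and 7 in liver 4 (31.4% and 18.1% of all expressed genes). In the same list 7 were highest in liver 3 and 6 in liver 1 (26.8% and 17.9% of all expressed genes). Their median SD was 0.21, against 0.17 for the 4 members and 0.16 for all expressed genes.

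**Figure D3:**
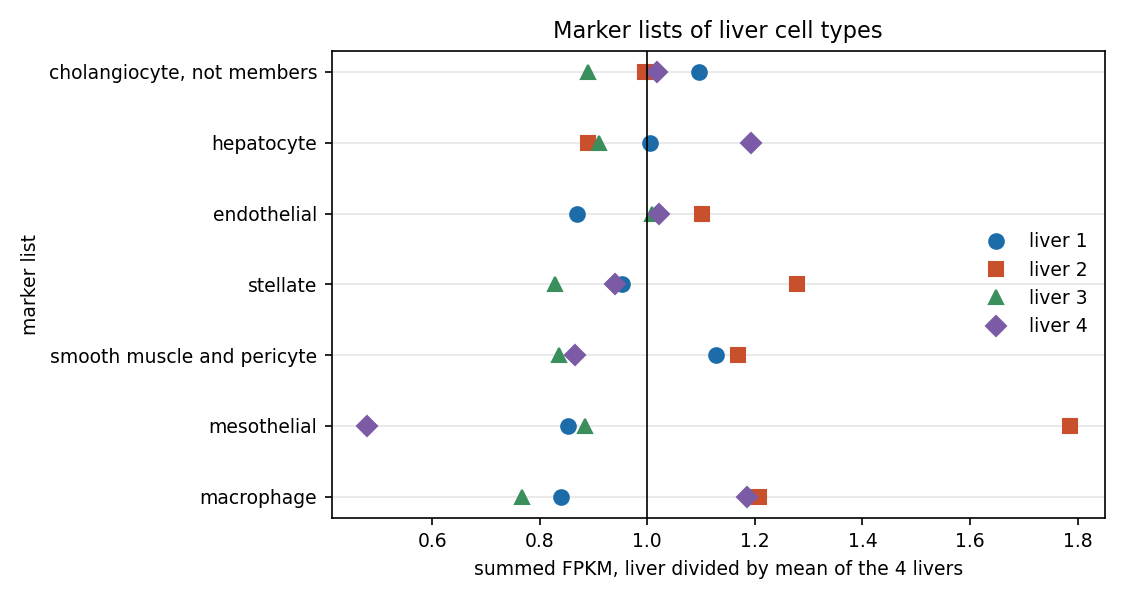
Summed FPKM of marker lists of liver cell types, each liver divided by the mean of the 4 livers, with the 4 cholangiocyte members left out of their own list. The mesothelial list spreads from 0.479 in liver 4 to 1.79 in liver 2, and the cholangiocyte list without the members from 0.890 in liver 3 to 1.10 in liver 1. Krt8, Krt18 and Spp1, which other liver cells also make, take 72.8% of that list's sum, so it does not stand for cholangiocytes alone.

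In all, 40 of the 57 pathway genes were expressed, and 34 of the 50 that are not members. Of the enzymes that put sugars on the receptors, 4 of 5 were expressed. Rfng, a Fringe glycosyltransferase, was at 7.12, 6.90, 10.7 and 7.27 FPKM in livers 1 to 4, high in liver 3 (Dixon's ratio 0.882). Mfng, another Fringe gene, was at 0.685, 0.935, 0.684 and 0.701 FPKM, high in liver 2 (0.927) but under the limit of expression. Mib2, a ubiquitin ligase acting on ligands, had 6.66 ± 0.482 FPKM (SD, n = 4), and Neurl1a between 0.117 and 0.307 FPKM.

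Psenen and Psen2, genes of gamma-secretase, had the highest means of the pathway list after Spp1. Psenen had 84.9 ± 18.2 FPKM and Psen2 81.7 ± 9.24 FPKM (each SD, n = 4). Among the cleavage genes Furin, which cuts the receptor precursor, had 57.4 ± 6.29 FPKM, and the sheddase gene Adam10 7.13 ± 0.679 FPKM (each SD, n = 4). Aph1c was the lowest, at 0.298 ± 0.121 FPKM (SD, n = 4). It is a close copy of Aph1b, and how reads shared by such copies were assigned is not given in the sources used here.

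In the nucleus, Maml1 was the one expressed Mastermind coactivator gene, at 2.56, 2.62, 3.60 and 2.45 FPKM in livers 1 to 4, high in liver 3 (Dixon's ratio 0.832). Kat2b, an acetyltransferase, had the highest mean of this group at 20.1 ± 2.97 FPKM (SD, n = 4), and Maml3 the lowest at 0.294 ± 0.0403 FPKM. All 6 corepressor genes were expressed, from L3mbtl3 at 1.62 ± 0.358 FPKM to Ctbp1 at 23.7 ± 2.39 FPKM (SD, n = 4). In this group 4 of 6 genes were highest in liver 3, as were 26.8% of all expressed genes. Of the negative regulators, 7 of 9 were expressed. Numb had the highest mean, 12.8 ± 0.366 FPKM, and Dtx1 the lowest, 0.406 ± 0.0443 FPKM (each SD, n = 4), while Dtx2 was low in liver 2, at 1.72 FPKM against 2.32 to 2.43 FPKM elsewhere (0.856).

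**Figure D4:**
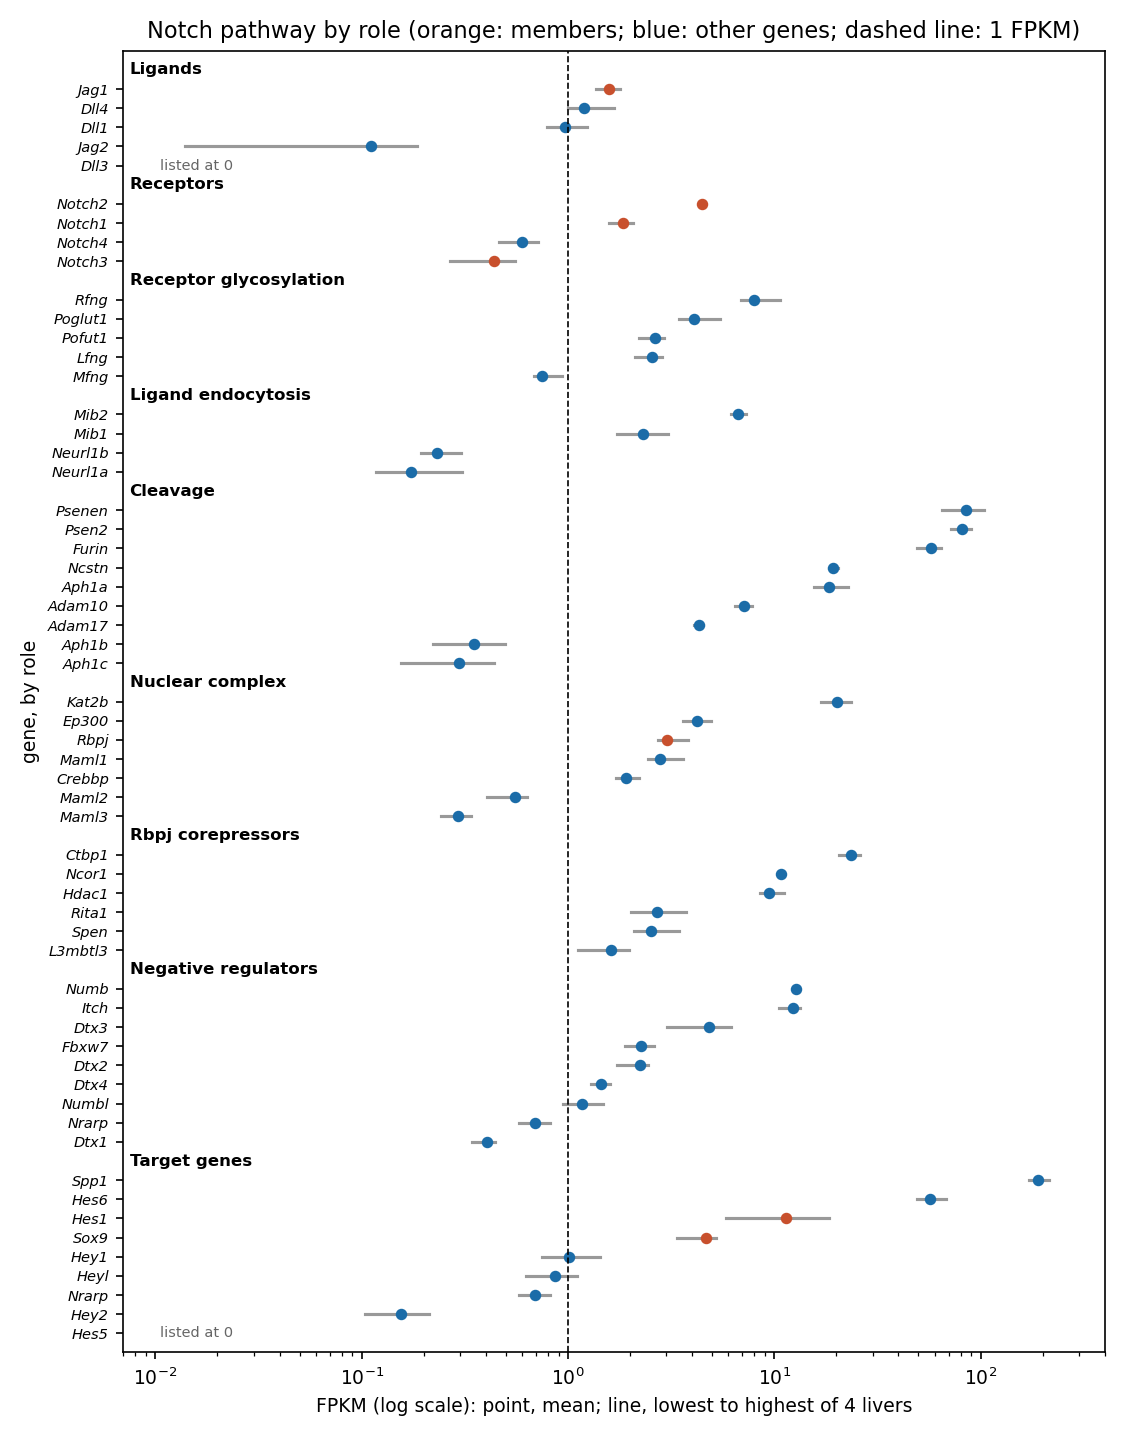
Mean (point) and range over 4 livers (line) of the 57 pathway genes by role, in FPKM on a log axis, with Nrarp drawn under both of its roles. Means of cleavage genes reach 84.9 FPKM, ligands stay at or below 1.78 FPKM in every liver, and the range of Hes1 is wide beside that of the receptors.

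Counted over all members, Sox9 and Rbpj were past Dixon's ratio, 2 of the 9 expressed members, against 5.46% of 10541 expressed genes. Rbpj lay on the high side, as did 2.70% of expressed genes, and Sox9 on the low side, as did 2.76%. In the pathway as a whole, 6 of 40 expressed genes were past it, 4 on the high side (Rbpj, Dll4, Rfng and Maml1) and 2 on the low side (Sox9 and Dtx2). An SD of at least 0.25 was found for 1 member, Hes1, and for 18.3% of expressed genes. With a pseudocount of 0.1 in place of 1, which widens the log2 differences of low genes, it was found for 4 members (Hes1, Sox9, Krt7 and Notch3, of which Notch3 is not among the expressed genes) and for 29.8% of expressed genes. The median SD of the 10 members was 0.14, against 0.16 for all expressed genes.

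No liver held most of the highest values. Of the 9 expressed members, 3 were highest in liver 1 (Krt19, Jag1 and Notch1), 2 in liver 2 (Epcam and Rbpj), 3 in liver 3 (Sox9, Krt7 and Hes1) and 1 in liver 4 (Notch2), a count that median-ratio scaling of the libraries turned to 0. Over all expressed genes the shares were 17.9%, 22.0%, 26.8% and 33.3% for livers 1 to 4. Notch3 was highest in liver 1 as well. Among the 9 expressed members, liver 4 held the lowest value of Sox9, Notch1 and Hes1, and liver 1 that of Krt7, Epcam, Notch2 and Rbpj. Liver 2 held the lowest value of 0 members. Notch3, not among the expressed genes, was also lowest in liver 4. Over all expressed genes, 20.7%, 29.9%, 31.4% and 18.1% were lowest in livers 1 to 4. Of the hepatocyte genes, 7 of 10 on the list had their highest value in liver 4 (33.3% of all expressed genes did). Hnf4a and Cps1 were highest in liver 3, and Tat was highest in liver 1 and lowest in liver 4. The list's median deviation in liver 4 was 0.20 (log2). Its sum there, mostly Apoa1, Fabp1, Cyp2e1 and Ttr, was 1.19 times the mean of the livers. The summed FPKM of all genes was also highest in liver 4, at 570681, and the number of genes above 0 lowest, at 14785. The part of these differences in the low values of liver 4 was not tested. The median deviation of the 4 cholangiocyte genes was 0.12 in liver 2 and -0.10 in liver 4, and that of the 6 Notch genes was -0.01 and -0.10, on the log2(FPKM + 1) scale. Over all expressed genes it was -0.02 in liver 2 and 0.04 in liver 4.

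**Figure D5:**
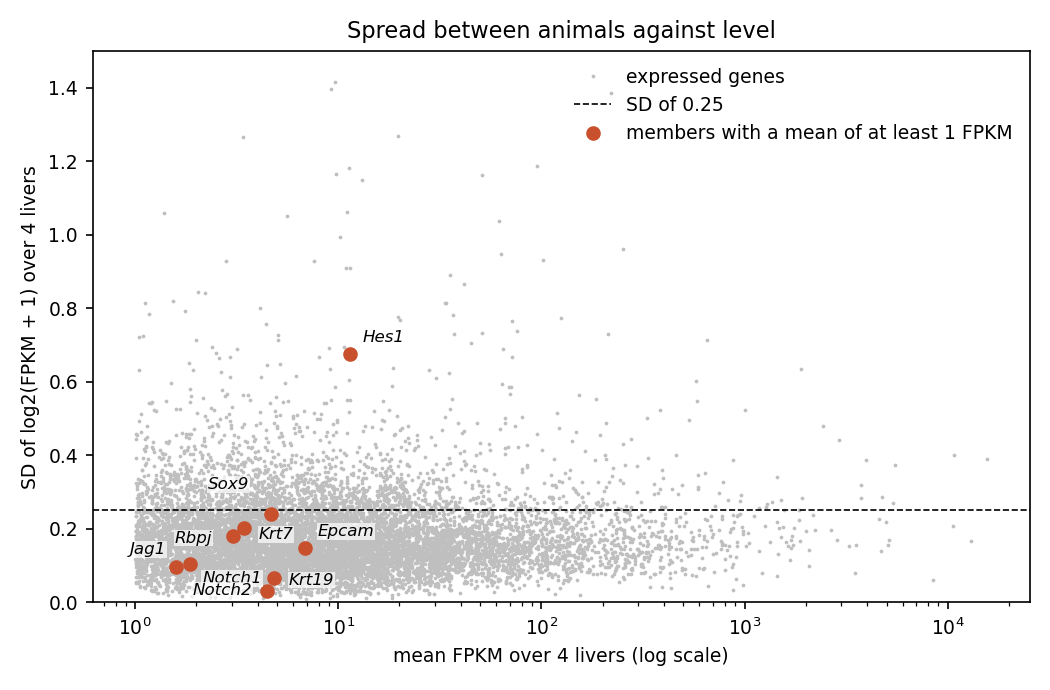
SD of log2(FPKM + 1) over the 4 livers against mean FPKM (log axis) for 10541 expressed genes in grey and the 9 expressed members in orange, with 15 genes above the upper end of the axis not drawn. Hes1 lies at 0.67, above the dashed line at 0.25, and the other members lie between 0.03 and 0.24.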

How the data were processed

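Whole-liver RNA of 4 mice in a single group was sequenced after poly(A) enrichment, per the labels' protocols. The deposited table gives 1 value per gene and library. The submitters' processing notes name FastQC 0.10.1, Trim Galore 0.6.3, cutadapt, STAR 2.7.6a, Cufflinks 2.2.1 and mm10. The roles of these tools and the annotation are not given in the sources used here. The header names no unit, and the values were read as FPKM made by the authors with Cufflinks, because they are not whole numbers and sum to 516816 to 570681 per library. Each column name equals the description of a sample, and the number of columns with no match was 0. Starts equalled RefSeq starts (GRCm38) in 52.0% of 22562 symbols with 1 added and in 3.00% as deposited, so 1 was added.

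Values were analysed with Python 3.11.15, NumPy 2.4.6 and pandas 2.3.3 as deposited and as log2(FPKM + 1), which shrinks the differences of genes with low FPKM. FPKM hold no counts. Depth was inferred from the values that 1 fragment gives in genes with 1 transcript above 800 bases (GENCODE vM21), taking FPKM times length less 200 bases within 25 to 75. Fragments behind a member used its principal transcript and are approximate, and errors from them cover counting only. Dixon's ratio, the SD and the scaling were tested on simulated data. Permutation tests were exact and two-sided. The spread is that between these 4 samples.

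The members and gene lists were chosen with earlier results of these data known, and some genes of the lists are not reported here. Named genes are the members, the genes of each list with the highest or lowest mean, the only expressed of their kind or past Dixon's ratio, and the 5 genes averaging 5 FPKM or more that lie nearest in profile to the cholangiocyte members or to Hes1. Further genes were chosen after their values were seen. Alternatives were pseudocounts of 0.1 and 5, limits of 0.5 and 2 FPKM, median-ratio scaling, and leaving out each liver.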

Additional observations from a re-analysis of the deposited data

Results flagged for a closer look

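In a group of 4 livers, a gene was marked when the gap of its highest or lowest liver to the nearest other exceeded Dixon's 95% critical share of the range of log2(FPKM + 1). Chance alone marks about 1 in 20 genes, and 133 genes of the lists were examined, of which 9 were marked.

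Of the members, Sox9 was low in liver 4 (0.841) and Rbpj high in liver 2 (0.920). In liver 2 the ligand gene Dll4 (0.858) and the Fringe gene Mfng (0.927) were also high, and Dtx2 was low (0.856). In liver 3 Rfng (0.882) and the coactivator gene Maml1 (0.832) were high. Among the cell type markers, the hepatocyte gene Apoa1 was high in liver 4 (0.870) and the smooth muscle gene Myh11 in liver 1 (0.834). The summed levels of the 17 lists were examined in the same way, and 0 were marked.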

How the results depend on the processing

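With a pseudocount of 0.1 the members with an SD of at least 0.25 numbered 4, with median-ratio scaling 2, and with a liver left out 1 to 2 (2 without liver 1, 2 or 3), against 1. The scaling moved the median of all expressed genes by between -0.05 and 0.02 (log2). It left 0 members highest in liver 4, against 1. With no logarithm, an alternative chosen after seeing the data, 1 member was past Dixon's ratio, Rbpj. Neighbouring pairs in the order of levels that kept 1 order numbered 5 to 8 with a liver left out, against 5, the 8 being without liver 4. The means of the members moved by less than 1 SD in all 40 fits without a liver and in all 10 with scaling. With 4 livers, leaving out 1 cannot move a mean by 1 SD, so the 40 fits say nothing about stability. The SDs of the members moved by over 1.5 times in 8 of 10 with a pseudocount of 5 and in 2 of 10 with 0.1. They did so in 1 of 10 with scaling (Notch2) and in 6 of 40 without a liver. Dixon's ratio was not computed without a liver. Depth limits Notch3 and Krt19 most. No paired analysis was possible because the samples form a single group, so that groups could not be paired. The within-liver tests compare genes.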

Other observations

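Onecut1 (hepatocyte nuclear factor 6), a transcription factor of hepatocytes and of biliary development on the cholangiocyte list, was at 1.25, 6.20, 23.7 and 7.33 FPKM in livers 1 to 4. Liver 3 was 19.0-fold above liver 1, a wider range than that of any of the 10 members, and liver 3 was also the liver with the highest Hes1. The tight junction gene Cldn7 ranked the livers otherwise, at 4.38, 3.97, 2.72 and 1.71 FPKM. The matrix protease gene Mmp7 reached 10.1 FPKM in liver 1 and 5.78 to 6.42 FPKM elsewhere, and the water channel gene Aqp1 14.5 FPKM in liver 1 and 19.7 to 24.5 FPKM elsewhere. These genes were chosen after their values were seen.

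The genes nearest in profile were sought among the 6538 genes averaging 5 FPKM or more, by Euclidean distance of the log2(FPKM + 1) deviations over the 4 livers. Nearest to the mean profile of Sox9, Krt7, Krt19 and Epcam were Rhbdf1, Zfp36l2, Dctn5, Brip1os and Ccng1, at distances from 0.02 to 0.04. Nearest to Hes1 were Fam8a1, Aacs, Endog, Tmsb10 and Bri3, at distances from 0.39 to 0.53. Fam8a1 was at 8.36, 11.1, 18.7 and 7.39 FPKM in livers 1 to 4. These likenesses rest on 4 livers and were not tested.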
